A study of Mus musculus with 3 samples.

Results

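The serum amyloid A genes Saa1, Saa2, Saa3 and Saa4, the lipocalin gene Lcn2, the haptoglobin gene Hp, the orosomucoid genes Orm1 and Orm2, the long pentraxin gene Ptx3 and the ceruloplasmin gene Cp were examined in cultured mouse mesenchymal stem cells (MSCs, plastic-adherent progenitor-like cells of connective tissue). These 10 genes were taken by symbol from a deposited table of 43346 genes, 22032 of them protein-coding, and every one of the 10 had a row. The set was chosen by the measured RPKM of Saa3, which was already known to be near the top of the table, so the levels below are a description and carry no test. The cells came from fat pads of adult C57BL/6 mice and were grown in advanced MEM with 10% FBS before RNA was taken for 3 libraries. The title places the study in the transplantation of such cells against venous stenosis of arteriovenous fistulas for haemodialysis. All 3 libraries belong to 1 group with no treatment, genotype or time contrast, and the labels do not say whether each had its own mouse or culture, so the SDs below may reflect technical spread. Library totals, inferred from the deposited values, were 28791540, 32962007 and 32001180 reads.

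Acute-phase proteins are plasma proteins whose production changes sharply in inflammation. In the liver, interleukin-6 acting through STAT3, and interleukin-1 and TNF acting through NF-kappaB and C/EBP factors, switch on their genes. Several are also made outside the liver: in mice Saa3 is the serum amyloid A gene best known for expression in fat, macrophages and other tissues, whereas Saa1 and Saa2 are the main hepatic forms and Saa4 is a constitutive one. The corresponding human SAA3 gene is a pseudogene.

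A single gene, Saa3, held most of the summed level of the group. Saa3 stood at 827 ± 37.5 RPKM (reads per kilobase of gene model, scaled to library size; mean ± SD, n = 3 here and below). Ptx3, Hp, Cp, Saa1 and Lcn2 followed at 39.6 ± 1.40, 27.0 ± 1.05, 7.70 ± 0.196, 2.48 ± 0.917 and 1.57 ± 0.101 RPKM. Saa2 averaged 0.0701 and Saa4 0.00517 RPKM, and Orm1 and Orm2 were listed at 0 in all 3 libraries. With detection defined as an RPKM of 1 or more in all 3 libraries, 6 of the 10 genes were detected, against 47.4% of protein-coding genes and 28.3% of all genes in the table. The group held genes near the top of the ranking, genes in its middle and genes without a read. In bulk RNA a few cells with much of a transcript cannot be told apart from many cells with little.

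The 4 serum amyloid A genes lie within 42.3 kb of chromosome 7, and the sequences just before the starts of 3 of them are shown because these neighbours differed so widely in level. Each is the 250 bases upstream of the RefSeq transcription start in the GRCm38.p6 assembly, written 5′ to 3′ in the direction of transcription, with positions counted back from the start. The gene coordinates given below are from GENCODE, and its starts can differ. By those coordinates the Saa3 and Saa2 windows reach into the genes, whose starts lie at 46715700 and 46751790. In Saa3, on the minus strand at chr7:46715677-46715926, the capitals mark a match to the C/EBP-type motif TTGCNNAA on the opposite strand, at positions -99 to -92.

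Saa3: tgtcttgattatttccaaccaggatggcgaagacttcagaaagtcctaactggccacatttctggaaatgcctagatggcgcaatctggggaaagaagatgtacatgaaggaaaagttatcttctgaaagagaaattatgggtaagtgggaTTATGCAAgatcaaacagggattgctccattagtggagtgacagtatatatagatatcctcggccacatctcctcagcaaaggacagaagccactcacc

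For Saa1, on the minus strand at chr7:46742981-46743230, and Saa2, on the plus strand at chr7:46751583-46751832, the capitals mark the bases that differ between the pair or have no partner in the other.

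Saa1: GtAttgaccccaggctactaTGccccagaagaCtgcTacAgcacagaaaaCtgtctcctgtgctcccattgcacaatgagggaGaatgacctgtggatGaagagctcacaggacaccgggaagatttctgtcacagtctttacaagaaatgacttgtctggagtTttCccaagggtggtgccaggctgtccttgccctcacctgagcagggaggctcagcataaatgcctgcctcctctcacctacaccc

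Saa2: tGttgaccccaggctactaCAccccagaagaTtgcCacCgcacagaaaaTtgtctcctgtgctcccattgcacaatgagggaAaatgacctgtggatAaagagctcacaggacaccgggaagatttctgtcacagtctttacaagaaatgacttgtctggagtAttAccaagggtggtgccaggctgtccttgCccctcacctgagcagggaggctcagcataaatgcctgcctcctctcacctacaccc

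The Saa1 and Saa2 sequences were identical at 238 of 249 aligned bases (95.6%), whereas Saa1 and Saa3 were identical at 130 of 232 (56.0%). The C/EBP-type motif TTGCNNAA, searched on both strands and chosen with the Saa3 sequence in view, occurred in 9.56% of 32851 mouse promoter windows of this length. Promoter sequences were at hand for 8 of the 10 genes, all but Hp and Orm1, and each of the 8 had a match in at least 1 of its windows. Counted by window, as the background is, 8 of 9 had a match. The Cp window that ends just before the annotated gene start had none. The Cp match lies in the window of a second start, which overlaps the first window and reaches into the annotated gene. Saa1 and Saa2 are nearly identical here, so their matches are not independent. The 8 genes include Saa2, Saa4 and Orm2, which had few reads or none. A looser NF-kappaB-type motif was GGG and CC separated by any 5 bases, which 45.8% of promoter windows hold. It was found in 5 of the 8 genes and 5 of the 9 windows, not in the Saa3 window. The STAT-type motif TTCNNNGAA, present in 7.02% of windows, had no match in any of the 8. The last motif searched, the TATA box letters TATAAA, is present in 12.4% of windows. It was found in 2 of the 8 genes, Orm2 and Cp, and 2 of the 9 windows, not in the Saa3 window. A match describes letters and is not a binding site, and no match says only that these letters are not in the window.

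**Figure D1:**
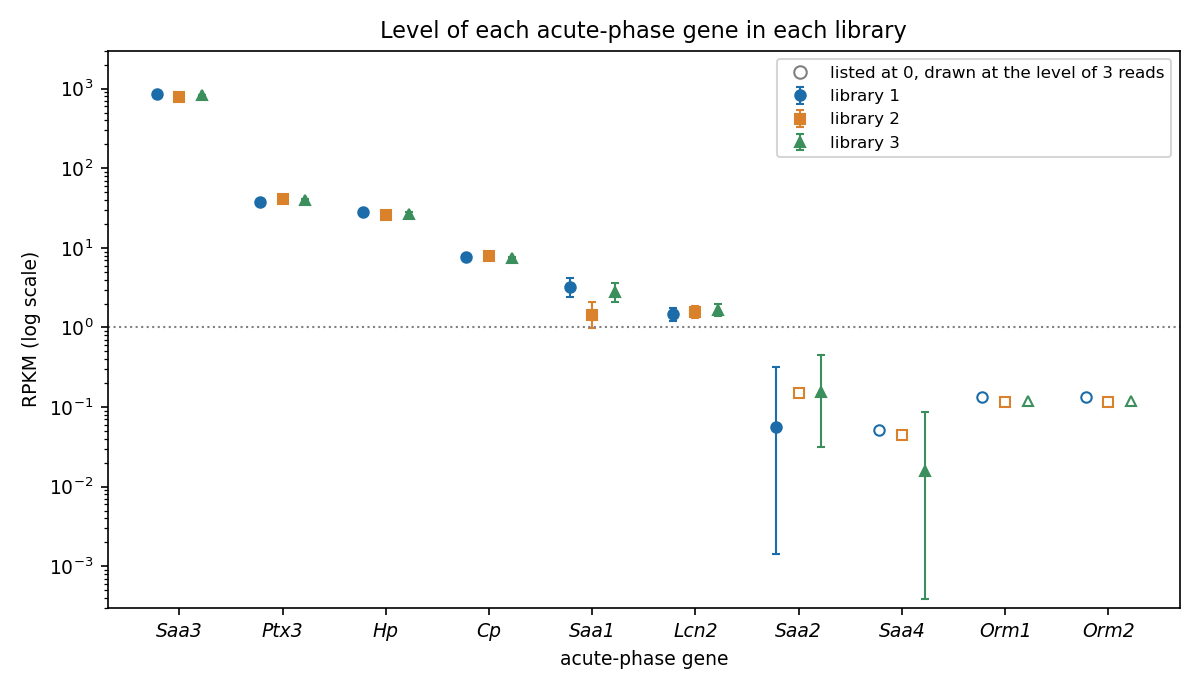
RPKM (log axis) of each acute-phase gene in libraries 1, 2 and 3. Filled symbols carry exact 95% Poisson intervals for counting error, open symbols mark values listed at 0 and stand at the level of 3 reads, and the dotted line is an RPKM of 1. Saa3 lies near 827 RPKM and Ptx3, the next, near 39.6 RPKM, while Saa2, Saa4, Orm1 and Orm2 stay below 1 RPKM.

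Saa3 encodes an inducible serum amyloid A, an apolipoprotein that associates with high-density lipoprotein. It is annotated at chr7:46711998-46715700 on the minus strand of the mm10 assembly. Saa3 had 864, 789 and 827 RPKM in libraries 1, 2 and 3, which came to 13232, 13833 and 14081 reads. Library 1 was the highest and library 2 the lowest, and their 95% counting intervals, 849 to 879 and 776 to 802 RPKM, did not overlap. Among protein-coding genes Saa3 ranked 12 by its mean, and 12, 14 and 12 in libraries 1, 2 and 3. It made up 91.3 ± 0.312% of the summed RPKM of the 10 genes and exceeded the other 9 together 10.6 ± 0.418-fold. The 3 protein-coding genes whose levels lay closest to it in every library were the galectin gene Lgals1 at 820.3 ± 19.2 RPKM, the myosin light chain gene Myl6 at 807 ± 8.35 RPKM and the chaperone gene Hsp90ab1 at 738 ± 12.6 RPKM, by the largest difference in log2(RPKM + 1) over the 3 libraries, which was 0.043, 0.081 and 0.23.

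The length by which a gene's reads are divided matters for this level. The Saa3 values came out as whole reads with a gene model of 531 bases, close to the 555 bases of its principal coding transcript in GENCODE M21, whereas all annotated Saa3 exons of that release merge to 2606 bases. Divided by the merged length, the same reads would give 169 RPKM and rank 148, with all other genes left as deposited. Lcn2, Ptx3 and Cp were divided by merged models of 2623, 2682 and 9566 bases, against 915, 1898 and 4029 bases for their principal coding transcripts. If all their reads came from those transcripts, the levels would be 4.49 ± 0.290, 55.9 ± 1.98 and 18.3 ± 0.464 RPKM, and Saa3 would stand at 792 ± 35.96 RPKM. Saa3, Ptx3, Hp and Cp kept this order on both scales, while Saa1 and Lcn2 changed places.

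**Figure D2:**
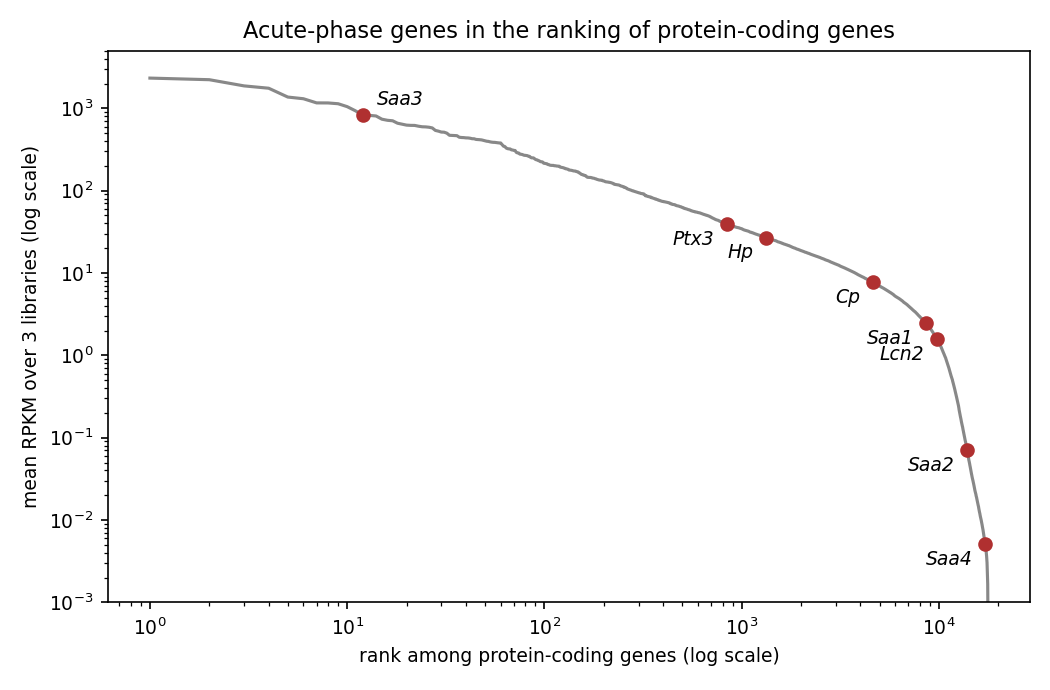
Mean RPKM over 3 libraries (log axis) against rank among protein-coding genes (log axis). The grey line is every protein-coding gene with a mean above 0 and the red points are the acute-phase genes, from Saa3 at rank 12 through Ptx3 at 843 and Hp at 1330 to Saa4 at 17154. Orm1 and Orm2, at 0, are not drawn.

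The other serum amyloid A genes had little RNA. Saa1, a hepatic acute-phase form at chr7:46740497-46742980, had 3.21, 1.45 and 2.78 RPKM in libraries 1, 2 and 3, from 56, 29 and 54 reads. Library 2 was the low one. Its counting interval, 0.972 to 2.09 RPKM, lay below those of libraries 1 and 3, 2.42 to 4.17 and 2.09 to 3.63 RPKM, although its upper end all but touches the lower end for library 3. Saa2, at chr7:46751790-46754313, had 0.0568, 0 and 0.153 RPKM, which is 1, 0 and 3 reads, and Saa4, at chr7:46727998-46732603, had a single read in library 3. Saa3 exceeded Saa1 269, 543 and 297-fold in libraries 1, 2 and 3. At these read numbers Saa2 and Saa4 cannot be ordered, and 3 reads in library 2 would have been 0.149 RPKM for Saa2 and 0.0451 RPKM for Saa4.

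How reads of near-identical copies were assigned is not given in the sources used here, and this bears on the level of Saa1. Of the 560 stretches of 50 bases in the principal Saa1 transcript 83 (14.8%) also occur in another gene, Saa2 or Saa3, and 9 of the 506 stretches of Saa3 occur in Saa1. Saa3 had 13232 to 14081 reads and Saa1 29 to 56, so the Saa1 level is uncertain. No 50-base stretch of Lcn2, Hp, Ptx3 or Cp was found in another gene.

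**Figure D3:**
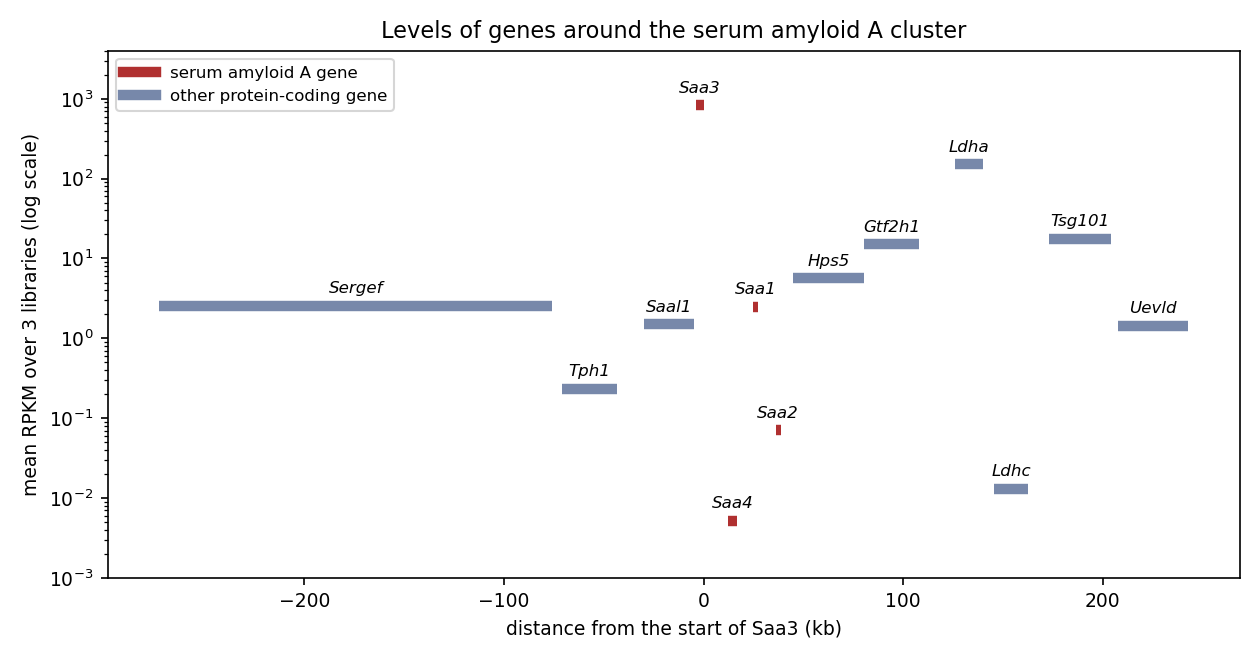
Mean RPKM over 3 libraries (log axis) of the 13 protein-coding genes within 200 kb of the serum amyloid A cluster, against distance from the start of Saa3 in kb. Horizontal bars span each gene, widened where narrower than the line can show, with serum amyloid A genes in red and others in blue. Saa3 at 827 RPKM lies beside Saal1 at 1.51 RPKM and Saa4 at 0.00517 RPKM.

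The genes around the cluster did not share the Saa3 level. Saal1, the direct neighbour on one side and named for similarity to serum amyloid A, had 1.51 RPKM, and Tph1, which encodes a tryptophan hydroxylase, had 0.232 RPKM. On the far side of Saa2, Hps5, a lysosome-related organelle gene, had 5.62 RPKM and Gtf2h1, a subunit gene of general transcription factor TFIIH, 15.0 RPKM. The lactate dehydrogenase gene Ldha was the next highest of the region after Saa3 at 152 RPKM, while its testis form Ldhc had 0.0130 RPKM. As deposited, Saa3 stood 5.43-fold above Ldha, and with its reads divided by the merged GENCODE exons this ratio would be 1.11.

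Ptx3 encodes a secreted long pentraxin that binds complement component C1q and helps to organise hyaluronan matrix. Its gene, at chr3:66219910-66225805, had 38.0, 40.8 and 39.9 RPKM in libraries 1, 2 and 3, from 2938, 3606 and 3424 reads, and ranked 843 among protein-coding genes. The 3 genes closest in level over the libraries were the collagen receptor gene Ddr1 at 39.5 ± 0.863 RPKM, the coatomer gene Copb2 at 39.3 ± 1.63 RPKM and the cytolinker gene Dst at 39.1 ± 0.994 RPKM. Of 11 pentraxin relatives and Ptx3 partners 8 were detected (72.7%, against 47.4% of protein-coding genes). The 8 include C1qa, C1qb and C1qc at 3.05, 4.32 and 2.01 RPKM, and C1qa and C1qb are also among the macrophage markers below. Fgf2, a growth factor that Ptx3 binds, had 34.4 ± 1.09 RPKM, and Has2, which makes hyaluronan, 11.9 ± 0.217 RPKM. Tnfaip6, whose product works with Ptx3 in hyaluronan matrix, had 2.02 ± 0.175 RPKM, whereas Itih1 and Itih2, for the heavy chains that are linked to hyaluronan, averaged 0.0125 and 0.293 RPKM. The short pentraxin genes Crp and Apcs, classical liver products, had 0.00302 and 0 RPKM.

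Hp encodes haptoglobin, which captures free haemoglobin. At chr8:109575128-109579172, it had 28.1, 26.1 and 26.7 RPKM in libraries 1, 2 and 3, from 1088, 1155 and 1147 reads. Its library range did not overlap that of Ptx3, the next gene above it, nor that of Cp, the next below. Cd163, the haptoglobin-haemoglobin receptor of macrophages, had 0, 0 and 0.0417 RPKM. Hpx, which encodes the haem-binding hemopexin, stood at 0.780 ± 0.335 RPKM and missed the detection threshold.

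Cp encodes ceruloplasmin, a copper-containing ferroxidase that readies iron for transferrin. It had 7.78, 7.84 and 7.47 RPKM in libraries 1, 2 and 3, from 2142, 2472 and 2288 reads, at chr3:19957054-20009145. In the annotation 108 bases of its exons overlap exons of Hps3 on the opposite strand, and reads there cannot be assigned if strand was not used in counting, which is not given in the sources used here. Lcn2 encodes lipocalin 2, which withholds iron from bacteria by binding siderophores. At chr2:32384633-32388252 it had 1.46, 1.58 and 1.66 RPKM, from 110, 137 and 139 reads. The counting intervals of its 3 libraries overlap, the lowest end being 1.20 and the highest 1.95 RPKM, and its range also overlaps that of Saa1.

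The iron genes listed beside these were uneven. Of 9 genes 6 were detected (66.7%, against 47.4% of protein-coding genes). The highest were the ferritin genes Fth1 at 1047 ± 68.8 RPKM and Ftl1 at 416 ± 10.1 RPKM, then the haem oxygenase gene Hmox1 at 55.8 ± 2.98 RPKM. The transferrin receptor gene Tfrc had 5.32 ± 0.356 RPKM, and Heph, the membrane ferroxidase related to ceruloplasmin, 2.17 ± 0.139 RPKM. Slc40a1, which encodes the iron exporter ferroportin that works with both ferroxidases, had 0.239 ± 0.0479 RPKM. Of the Lcn2 receptors Lrp2 had 5.40 ± 0.116 RPKM and Slc22a17 1.89 ± 0.187 RPKM. None of 7 other lipocalin genes was detected, the highest being Rbp4 at 0.239 RPKM.

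Orm1 and Orm2 encode alpha-1-acid glycoproteins, plasma carriers of lipids and drugs. Both lie on chromosome 4, at chr4:63344560-63348163 and chr4:63362449-63365878, and both were listed at 0 in all 3 libraries, as was their relative Orm3. Among protein-coding genes 19.7% were listed at 0 in all 3. Orm1 and Orm2 are 91.0% identical in transcript sequence, and 20.4% of the 50-base stretches of Orm1 and 22.7% of those of Orm2 occur in another gene, so most of each transcript could still be told apart. At the depth of these libraries 3 reads would have been 0.134, 0.117 and 0.121 RPKM for either gene in libraries 1, 2 and 3.

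The rest of the positive acute-phase response was mostly at or near 0. Detection held for 5 of 17 further genes (29.4%, against 47.4% of protein-coding genes). The median log2(RPKM + 1) of the 17 was 0.057, against 0.85 over protein-coding genes. The metallothionein genes Mt1 and Mt2, which also respond to metals and glucocorticoids, had 171 ± 13.3 and 54.7 ± 4.17 RPKM, and the complement gene C3 had 131 ± 3.91 RPKM. Serpina3n, a protease inhibitor gene, stood at 2.996 ± 0.243 RPKM and Lbp, for the lipopolysaccharide-binding protein, at 2.86 ± 0.331 RPKM. The fibrinogen genes Fga, Fgb and Fgg averaged 0, 0.0110 and 0.00483 RPKM. Of 6 negative acute-phase genes, whose plasma products fall in inflammation, the transferrin gene Trf had 71.5 ± 0.573 RPKM and Alb, Ttr and Ahsg were listed at 0.

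Genes for the signals that induce the response were examined next. Of 10 ligand genes 3 were detected (30%, against 47.4% of protein-coding genes). These were Il6 at 20.97 ± 0.937 RPKM, Clcf1 at 5.64 ± 0.743 RPKM and Lif at 4.68 ± 0.521 RPKM, all of the interleukin-6 family. Il11, of the same family, had 0.978 ± 0.0340 RPKM and just missed the threshold. Il1a, Il1b and Tnf averaged 0.155, 0.0267 and 0.170 RPKM, and Il17a and Il22, products of lymphocytes, were listed at 0. All 12 genes of the receptor list were detected (100%, against 47.4% of protein-coding genes). The list includes Nr3c1, for glucocorticoids, at 11.5 ± 0.274 RPKM, and holds no receptor for Il22. The highest were Tnfrsf1a for TNF at 38.2 ± 2.70 RPKM, the shared interleukin-6 family subunit gene Il6st at 34.7 ± 0.697 RPKM and the interleukin-1 receptor gene Il1r1 at 24.3 ± 1.69 RPKM. The lowest was Il6ra, the subunit that binds interleukin-6 itself, at 1.88 ± 0.0849 RPKM.

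**Figure D4:**
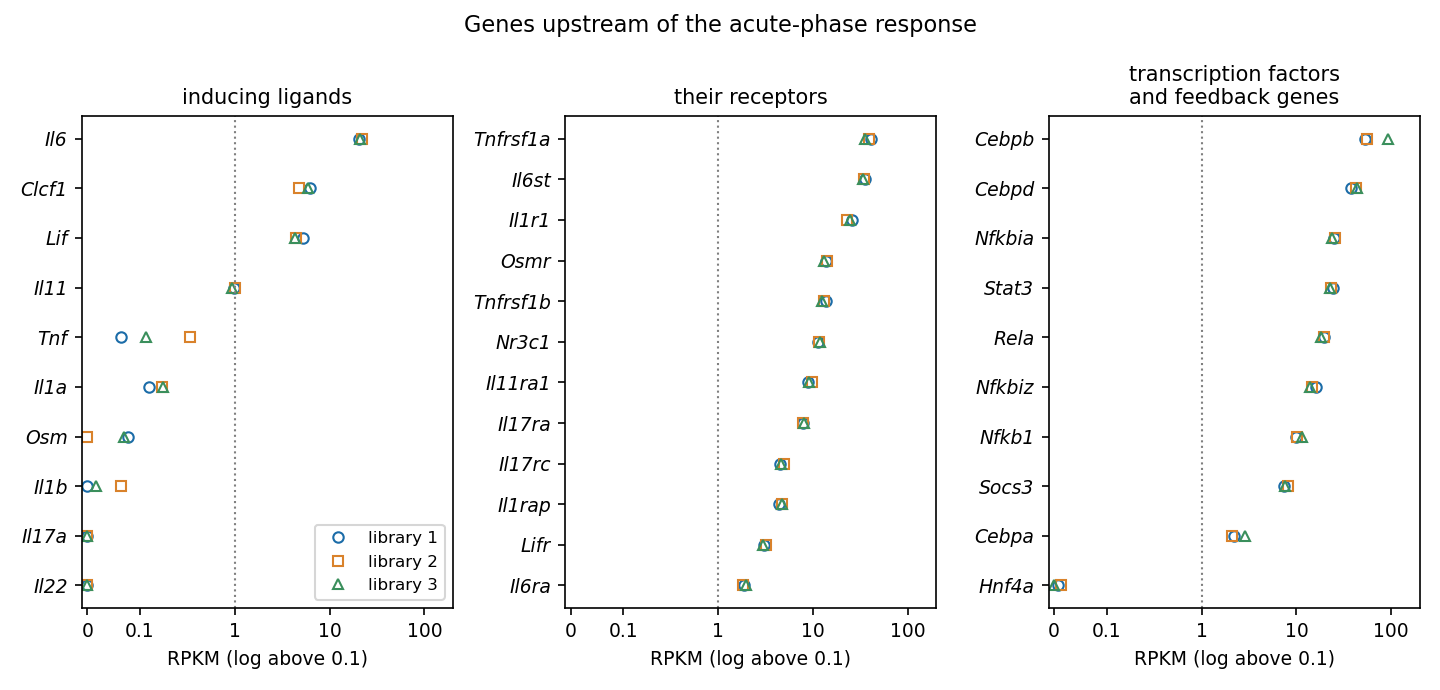
RPKM of each library (axis linear below 0.1 and logarithmic above) for inducing ligands, their receptors and the transcription factors and feedback genes, each gene a line and each library a symbol. The dotted line is an RPKM of 1. Il6 leads the ligands at 20.97 RPKM, and Cebpb in library 3 stands apart at 92.2 RPKM. The 12 receptors, Nr3c1 for glucocorticoids among them, all lie above 1 RPKM.

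Of 10 transcription factor and feedback genes of the response, 9 were detected (90%, against 47.4% of protein-coding genes). The median of the list was 4.15 on the log2(RPKM + 1) scale, against 0.85 over protein-coding genes. Cebpb and Cebpd, for the C/EBP factors that are themselves induced in inflammation, had 66.6 ± 22.2 and 41.2 ± 2.99 RPKM. Stat3 had 23.4 ± 0.730 RPKM and its feedback inhibitor gene Socs3 7.66 ± 0.404 RPKM. The NF-kappaB genes Rela and Nfkb1 had 19.0 ± 0.918 and 10.5 ± 0.843 RPKM, and the inhibitor gene Nfkbia 24.7 ± 1.01 RPKM. Nfkbiz, whose product is needed for Lcn2 induction in mice, had 14.8 ± 1.08 RPKM. The hepatic factor gene Hnf4a averaged 0.00659 RPKM.

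Receptor genes for the proteins of the group were detected in 6 of 12 cases (50%), a share near the 47.4% of protein-coding genes. The highest was Lrp1, which takes up haem-hemopexin and many other ligands, at 136 ± 2.75 RPKM. Hemopexin itself is not among the proteins of the group. For serum amyloid A, Scarb1 had 3.07 ± 0.309 RPKM, the Toll-like receptor gene Tlr4 2.78 ± 0.250 RPKM and the purinergic receptor gene P2rx7 1.13 ± 0.0571 RPKM. Tlr2 had 0.852, 1.05 and 0.798 RPKM in libraries 1, 2 and 3, above the threshold in library 2 alone. Cd36, Ager and Fpr1, also on the list, averaged 0.724, 0.538 and 0.0415 RPKM and were not detected. The formyl peptide receptor gene Fpr2, a leukocyte receptor for serum amyloid A, was listed at 0.

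The libraries agreed closely in 5 of the 6 detected genes. The distance between the highest and lowest library, on the log2(RPKM + 1) scale, was 0.13 for Saa3, 0.098 for Ptx3, 0.11 for Hp, 0.061 for Cp and 0.11 for Lcn2, against a median of 0.12 over the 10677 protein-coding genes that averaged at least 1 RPKM. For Saa1 it was 0.78. With a distance of 0.5 or more as the call, Saa1 was the 1 gene called among the 10, against 0.903% of all protein-coding genes and 1.31% of those averaging at least 1 RPKM. Among the 4056 protein-coding genes within a factor of 2 of the Saa1 level it was 1.97%. None of these shares is matched on reads. Saa1 had 56, 29 and 54 reads on a model of 605 bases. Lcn2, lower in RPKM, had 110, 137 and 139 reads on 2623 bases. Counting error is therefore larger for Saa1 than for genes of similar RPKM with longer models, and the shares may make its distance look rarer than it is. Without library 2 no gene of the group was called.

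Library 1 was the highest for Saa3, Hp and Saa1 and library 2 the lowest for all 3. Ptx3 and Cp were highest in library 2, and Lcn2 was highest in library 3. Cebpb stood at 52.4, 55.2 and 92.2 RPKM in libraries 1, 2 and 3, a distance of 0.805, and neither Saa3 nor any of the other 5 detected genes was set apart in library 3. With 3 libraries no relation between these genes can be tested.

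**Figure D5:**
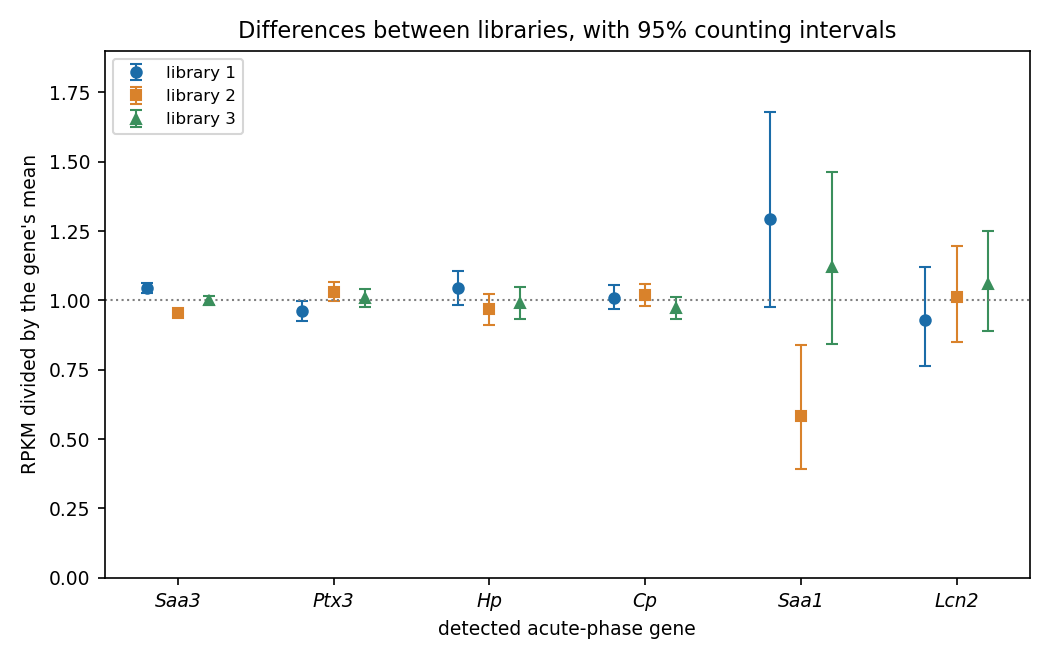
RPKM of each library divided by the gene's mean over 3 libraries, for the 6 detected acute-phase genes, with exact 95% Poisson intervals for counting error. The dotted line is the mean. Saa1 in library 2, from 29 reads, lies well below libraries 1 and 3, from 56 and 54 reads, while the other 5 genes stay close to their means.

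Markers of the labelled cells and of other cells that could carry these genes were read in the same libraries. All 10 mesenchymal stromal markers were detected, with a summed level of 568 to 586 RPKM, 329 ± 13.0 of it from the integrin gene Itgb1. None of 10 hepatocyte markers was detected, the sum being 0.685 to 1.02 RPKM and Alb, Ttr, Apoc3, Ahsg and Tat at 0. None of 10 neutrophil markers was detected either, with a sum of 0.382 to 0.845 RPKM and Ngp and Retnlg at 0. Of 10 adipocyte markers 2 were detected, Lpl and Fabp4, with Adipoq and Cfd at 0. The sum was 19.5 to 20.9 RPKM, 16.9 ± 1.02 of it from Lpl. Pparg averaged 1.11 RPKM but was below 1 in library 1. Of 8 endothelial markers 1 was detected, with Cldn5 at 0 and a sum of 2.58 to 2.72 RPKM. All 10 mesothelial markers were detected, with a sum of 224 to 246 RPKM. The highest were Upk1b at 70.1 ± 5.23 RPKM and Upk3b at 43.7 ± 3.30 RPKM. Of 10 macrophage markers 5 were detected, a share near the 47.4% of protein-coding genes, with a sum of 40.4 to 42.9 RPKM, 26.2 ± 1.51 of it from the lysozyme gene Lyz2. The other detected ones were C1qb, Cd68, C1qa and Csf1r. Mrc1 and Itgam averaged 1.12 and 1.08 RPKM but were below 1 in 1 library each, and Adgre1, Ptprc and Cd163 averaged 0.554, 0.136 and 0.0139 RPKM. The part of these cells in the Saa3, Hp and Ptx3 levels was not tested.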

How the data were processed

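Gene expression was measured by RNA sequencing in 3 libraries of adipose-derived MSCs. Per the labels' protocols, RNA was isolated with the miRNeasy kit and libraries were made with the TruSeq V2 kit. The authors deposited 1 table of RPKM values with a column per library, matched to samples by replicate number. Per the submitters' processing notes, mm10 was the build. No aligner, counting tool, annotation release or read length is named in the sources used here.

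RPKM as deposited was the main scale, and distances between libraries used log2(RPKM + 1), which understates differences of low genes. Library totals and reads were inferred. An RPKM is a whole read number divided by the model length and the total, so the totals were sought at which most genes give whole reads with GENCODE M21 merged exon lengths plus 1 base. They came to 28791540, 32962007 and 32001180 reads for libraries 1, 2 and 3. Of 12917 genes with 20 to 5000 reads, 62.2% were then within 0.05 of whole numbers in all 3 libraries, against 0.1% by chance. For Saa1, Saa2, Saa3, Saa4 and Hp, whose annotated length gave no whole reads, the smallest length from 300 bases that did so within 0.02 was used. On simulated data for 42462 genes, this rule recovered 88.5% of 200 wrong lengths. The 200 genes had more than 20 simulated reads in every library. The share therefore does not cover Saa2 and Saa4, with at most 3 reads in any library. Multiples of a length fit as well, so these reads are inferences. At these totals 3 reads in a 1 kb model are 0.104, 0.0910 and 0.0937 RPKM in libraries 1, 2 and 3. Intervals are exact Poisson at 95% and, like these limits, cover counting error only. Of the 43346 genes 42462 matched GENCODE M21 by identifier, and coordinates are from that release, also on mm10.

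The members, lists, thresholds and rules were chosen with earlier results of these data known. The rule for named genes took the 10 members, the detected genes and the highest and lowest of each list, the 3 nearest genes to Saa3 and Ptx3, the neighbours of the cluster and defining markers of other cells. Not every gene it covers is printed, and those named outside it, such as Hpx, Il11, Tlr2 and Itih2, were chosen after their values were seen. One gene of the transcription factor list is not reported here. A comparison of proteins was planned and not made. Promoter sequences are RefSeq's on GRCm38.p6. The motif letters were chosen after the Saa3 promoter was seen. The alternatives left out each library and changed scale, threshold, pseudocount, ranked genes and stretch length, and those on model length were added after seeing the data. The work used pandas 2.3.3 and numpy 2.4.6 under Python 3.11.15, with Biopython 1.88 for sequences, scipy 1.17.1 for intervals and matplotlib 3.10.9 for plots.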

Additional observations from a re-analysis of the deposited data

How the results depend on the processing

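Leaving out each library in turn gave a Saa3 level of 808 to 845 RPKM, rank 12 to 13, a share of the group's sum of 91.2 to 91.5%, 6 detected genes each time, 5 to 7 separated neighbours in the order, and 0 to 1 genes past a distance of 0.5 between libraries, the 0 being without library 2. Rescaling to TPM multiplied all genes of libraries 1, 2 and 3 by 0.389, 0.336 and 0.334 and put Saa3 at 293. Saa3 ranked 45 among all genes and 11 without ribosomal protein genes, and with merged GENCODE exons, chosen after seeing the data, it stood at 169 RPKM and rank 148. Per principal coding transcript, also chosen after seeing the data, its share was 88.0%. At pseudocounts of 0.1 and 0.01 the genes past 0.5 were 2 and 3, since low values then weigh more. A threshold of 2 RPKM, or of 1 TPM, left 4 genes detected. The share of stretches found in another gene depended on their length, by construction. At 100 bases it was 0% for Saa1, Saa2, Saa3 and Saa4 and 6.95% for Orm1 and Orm2, and at 36 bases 24.6%, 21.7%, 4.81% and 3.01% for Saa1, Saa2, Saa3 and Saa4, 25.7% for Orm1 and 30.8% for Orm2. Of 42 values of the other 7 genes with reads, 34 moved by less than the SD between libraries and 8 by more, 5 under TPM and 3 per principal transcript. Leaving out 1 of 3 libraries cannot move a mean by a full SD. The 7 values for each library left out were therefore bound to fall among the 34. Saa2 and Saa4, whose SDs exceed their means, were bound to do so under TPM too. A further 7 of the 34 came from scaling the libraries to the same protein-coding sum. Those sums were already close, at 197547, 197401 and 198488 RPKM in libraries 1, 2 and 3, so that setting could hardly move a mean. No paired analysis was possible because there is 1 group. Depth limits Saa2 and Saa4, which had at most 3 reads in any library.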

Other observations

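Some genes outside the group stood apart from their lists. Hpx had 0.493, 1.15 and 0.697 RPKM in libraries 1, 2 and 3, a distance of 0.53 on the log2(RPKM + 1) scale, and was the 1 gene of the 17 further positive acute-phase genes past 0.5. Camp, which encodes a neutrophil antimicrobial peptide, had 0.484 ± 0.215 RPKM while every other neutrophil marker averaged 0.0396 RPKM or less. Apoa2, an apolipoprotein gene, had 0.760 ± 0.142 RPKM while the other 9 hepatocyte markers averaged 0.0699 RPKM or less.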
